A study of Mus musculus with 2 samples.

Results

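Guanylate-binding proteins (GBPs) and immunity-related GTPases (IRGs) are interferon-inducible GTPases of cell-autonomous defence. The 10 genes described here were taken from 32285 gene rows shared by both count matrices. They are the GBP genes Gbp2, Gbp3, Gbp5, Gbp6 and Gbp7 and the IRG genes Igtp, Irgm1, Irgm2, Iigp1 and Tgtp2. Their rows were found by gene symbol, in cells with 1000 to 5000 detected genes and under 20% mitochondrial UMIs, where a UMI (unique molecular identifier) stands for 1 captured RNA molecule. The genes were selected on measured values of these libraries. All 10 also belong to the 50 markers of an interferon-high endothelial cluster that the study drew partly from the same cells. Their differences between the libraries are therefore given as a description, without a test.

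Both libraries came from lungs of wild-type (WT) C57BL/6 mice, male and 8 to 10 weeks old by the study's methods, taken 6 h after a tail vein injection. The control group received PBS, and the B16-F10 6 h group received 400000 B16-F10 cells in 100 µl of PBS. B16-F10 is a mouse melanoma line whose cells lodge in lung capillaries when given intravenously. Pecam1-positive, Ptprc-negative endothelial cells (ECs) were sorted, and the injected lungs also gave sorted melanoma cells that carried a tracker dye. Each group was a single library of pooled mice. The labels give 2 mice per treatment, whereas the study's methods give 3 for the experiment with this cell dose. With no replicate library, every interval below is a 95% interval that covers counting error only, and no p-value can be given.

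Interferon gamma signals through Ifngr1 and Ifngr2 and the kinases Jak1 and Jak2 to the gamma-activated site (GAS) in target promoters. Type I interferon signals through Ifnar1, Ifnar2, Jak1 and Tyk2 to the interferon-stimulated response element (ISRE), which Irf9 complexes and Irf1 bind. GBPs are large GTPases that coat pathogen vacuoles and cytosolic bacteria and help present lipopolysaccharide to caspase-11, the product of Casp4. Among mouse IRGs, Iigp1 and Tgtp2 encode effectors that load onto vacuole membranes. Igtp, Irgm1 and Irgm2 encode regulators that sit on the cell's own membranes and keep the effectors inactive there.

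Of the 10 genes, 9 lie on chromosomes 3, 5 and 11 of the mouse genome (GENCODE M21, GRCm38, the assembly that the submitters' processing notes call mm10), and all are annotated as protein coding. Gbp5 (chr3:142493978-142522344), Gbp7 (chr3:142530342-142550149), Gbp3 (chr3:142560026-142573209) and Gbp2 (chr3:142620602-142638008) stand on the plus strand within 144 kb of chromosome 3. Gbp6 stands in the other GBP cluster (chr5:105270702-105293698, minus strand). Irgm1 (chr11:48861968-48871683, minus strand) and Tgtp2 (chr11:49057194-49064206, minus strand) share a stretch of chromosome 11. Igtp (chr11:58199556-58207591) and Irgm2 (chr11:58199618-58222782) overlap by 7974 bases on the plus strand, so part of their reads may be assigned to either gene.

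RefSeq promoter windows of 300 bases, from 250 before to 50 after a transcription start (GRCm38.p6), were at hand for 8 of the 10 genes. All 8 genes held the ISRE core GAAANNGAAA in at least 1 window, as did 3.99% of the 27025 genes with such windows. The GAS core TTCNNNGAA was found at 5 of the 8 genes (Gbp5, Gbp7, Igtp, Irgm2 and Tgtp2) and at 9.55% of all 27025 genes. Both motifs were searched on either strand, overlapping matches included, and a match is a run of letters and not a shown binding site. Of 2 windows of Gbp3, 1 held no match. An ISRE match is printed for each gene because all 8 genes had this feature, and for Gbp3 and Irgm1, which had 2 overlapping matches, 1 of them is shown. Each run of 30 bases reads 5′ to 3′ on the gene's strand with the match in capitals.
Gbp2 (chr3:142620594-142620623, plus strand): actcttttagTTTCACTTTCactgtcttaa
Gbp3 (chr3:142559989-142560018, plus strand): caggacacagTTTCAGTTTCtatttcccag
Gbp5 (chr3:142496759-142496788, plus strand): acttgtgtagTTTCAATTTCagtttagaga
Gbp7 (chr3:142530273-142530302, plus strand): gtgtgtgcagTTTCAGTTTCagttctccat
Igtp (chr11:58199512-58199541, plus strand): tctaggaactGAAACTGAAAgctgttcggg
Irgm1 (chr11:48871425-48871454, minus strand): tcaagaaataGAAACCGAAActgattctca
Irgm2 (chr11:58214903-58214932, plus strand): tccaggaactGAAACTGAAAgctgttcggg
Tgtp2 (chr11:49064263-49064292, minus strand): tccaggaatcGAAACCGAAAcctactctga

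The matches printed for the 4 GBP genes read TTTC on the gene's strand, and those of the 4 IRG genes read GAAA. Their nearest edge stood between 15 bases (Irgm1) and 156 bases (Gbp5) upstream of the RefSeq start. Sequence likeness also limits counting. Every 91-base window in the last 1000 bases of the Tgtp2 transcript was found in Tgtp1 as well, and 56% of those of Gbp6 in the gene model Gm43302, which has no row in the matrices. The other 8 genes shared no such window with another gene. Levels of Tgtp2 and Gbp6 are thus uncertain, since reads that match several genes may have been left out.

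The libraries held 85794655 UMIs (control) and 104978816 UMIs (B16-F10 6 h), and 7830 and 7767 cells were kept after doublet removal. Clustering without the 10 genes and the other interferon genes gave general capillary (gCap-like, 4380 and 4091 cells), aerocyte (aCap-like, 1449 and 977), artery-like (182 and 141), vein-like (273 and 263) and lymphatic (LEC-like, 58 and 51) cells. Pecam1 was detected in 96.1% to 100% of the cells of each class and Ptprc in at most 1.72%. Median UMIs per cell were higher in the B16-F10 library, at 7227 and 8441 in gCap-like cells and 9148 and 11326 in aCap-like cells. UMIs were therefore summed per class and divided by the class total, giving UMIs per 1000000 (CPM). The libraries shared 19 cell barcodes, 0.226% of the cells in control and 0.228% in the B16-F10 library. Free RNA, estimated from lung epithelial transcripts, supplied at most 2.21% of any of the 10 genes in gCap-like cells of either library.

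In control lungs the summed level of the 10 genes was lowest in aerocytes and lymphatic cells. It was 1184 CPM (1145 to 1224) in vein-like cells, 921 CPM (911 to 932) in gCap-like cells and 770 CPM (724 to 817) in artery-like cells. It was 287 CPM (241 to 339) in LEC-like cells and 243 CPM (235 to 252) in aCap-like cells, whose intervals overlap, while the other neighbours in this order are apart. Gbp5, whose product promotes inflammasome assembly, ranged from 0.763 CPM in aCap-like cells to 82.7 CPM in vein-like cells. Iigp1, a protein-coding gene that lies apart from the others (chr18:60376027-60392634, plus strand, GRCm38), ranged from 8.77 CPM in aCap-like to 393 CPM in vein-like cells. The IRG regulators were more even than Gbp5 and Iigp1 across the 4 blood vessel classes. Irgm1 stood between 36.5 CPM (artery-like) and 75.9 CPM (gCap-like). Igtp stood between 29.35 CPM (artery-like) and 63.0 CPM (vein-like), and Irgm2 between 57.1 CPM (aCap-like) and 129 CPM (vein-like).

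**Figure D1:**
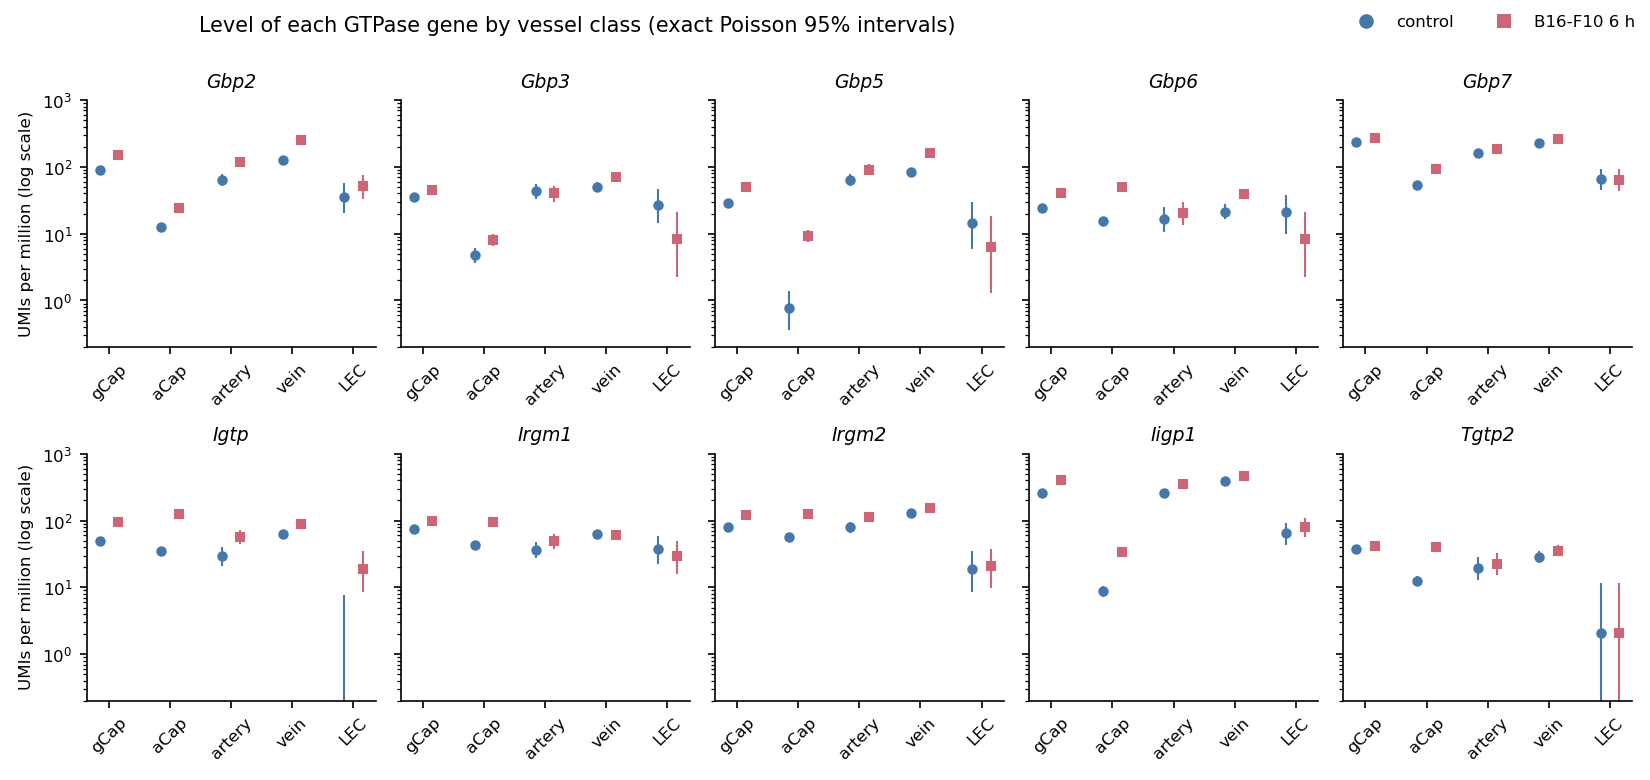
Level of each of the 10 genes (CPM, log scale) in gCap-like, aCap-like, artery-like, vein-like and LEC-like cells of the control library (circles) and the B16-F10 6 h library (squares), with exact Poisson 95% intervals; the 0 UMIs of Igtp in control LEC-like cells appear as the interval alone. In aCap-like cells every B16-F10 value lies above its control, and Gbp5 goes from 0.763 to 9.35 CPM.

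In gCap-like cells, the most abundant class, all 10 genes were higher 6 h after B16-F10 injection, by moderate amounts. Their summed level was 921 CPM in control and 1314 CPM (1302 to 1326) in the B16-F10 library, a log2 ratio of 0.51 (0.49 to 0.53). At least 1.5-fold higher were 5 of the 10 genes (Gbp2, Gbp5, Gbp6, Igtp and Iigp1), while 7.66% of 13074 genes with at least 50 UMIs were as much higher. The median log2 ratio of the 10 genes was 0.61, against -0.04 over all measured genes. These shares are not independent of how the genes were selected and are not read as a result.

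Igtp differed most in gCap-like cells, at 49.4 CPM in control and 95.4 CPM after injection, a log2 ratio of 0.95 (0.86 to 1.04). Among the GBPs, Gbp5 went from 29.3 to 49.9 CPM (0.77, 0.65 to 0.88) and Gbp6 from 24.3 to 41.1 CPM (0.76, 0.63 to 0.88). Gbp2, a GBP that targets Toxoplasma vacuoles, stood at 88.7 and 149 CPM (0.75, 0.68 to 0.81). These 4 genes were the farthest apart between the libraries. The effector Iigp1 stood at 260 and 404 CPM (0.64, 0.60 to 0.68), and the regulator Irgm2, at 81.5 and 122 CPM (0.58, 0.51 to 0.65), lay just under 1.5-fold. The remaining genes differed little. Irgm1 stood at 75.9 and 97.2 CPM (0.36, 0.28 to 0.43) and Gbp3 at 35.4 and 45.03 CPM (0.35, 0.24 to 0.46). Gbp7 stood at 239 and 268 CPM (0.16, 0.12 to 0.21) and Tgtp2 at 38.05 and 41.6 CPM (0.13, 0.02 to 0.24).

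The make-up of the gCap-like class differed between the libraries, and the gCap values moved with it. Cluster 0, led by Ankrd63, Hey1 and Sox11, held 35.5% of control and 9.31% of B16-F10 gCap-like cells. Cluster 7, led by Ada, Disp2, Tmem252 and Inhbb, held 1.64% and 23.4% and has 4 markers of the study's reactive capillary (rCap) cells among its 10 leading genes. Without cluster 7 the median log2 ratio was 0.49 and 3 genes were at least 1.5-fold higher. With doublets kept, which put 4507 and 3273 cells in the class, the median was 0.42 and 2 genes passed.

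Within each gCap-like cluster the 10 genes were compared again, so that the make-up was held closer. Their summed level was higher in the B16-F10 library in all 6 clusters, from a log2 ratio of 0.11 (0.01 to 0.21) in cluster 7 to 0.48 (0.43 to 0.53) in cluster 4. Cluster 4, led by Vegfc, Kcnh1 and Chrm2, went from 1108 to 1542 CPM. In cluster 7, 5 of the 10 genes were above 0 and the median was 0.02. It stood at 1482 CPM in its 72 control cells and at 1602 CPM in its 958 B16-F10 cells, the highest level of the 6 clusters in both libraries. Cluster 3, led by Ntrk2, was lowest, at 714 and 853 CPM. In clusters 0 and 4, where 5.19% and 5.33% of all genes were at least 1.5-fold higher, 4 of the 10 genes were. It was 3 of 10 in clusters 1 and 5 (7.92% and 15.7% of all genes), 1 in cluster 7 (16.1%) and 0 in cluster 3 (4.55%).

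In aCap-like cells, which hold little of these genes at rest, all 10 genes were at least 1.5-fold higher after injection. Of 11106 measured genes 6.48% were as much higher in these cells, a share not independent of the selection of the 10 genes when set beside them. The summed level was 243 CPM in control and 607 CPM (593 to 622) in the B16-F10 library. Its log2 ratio was 1.32 (1.26 to 1.38). The median log2 ratio of the 10 genes was 1.43, against 0.01 over all genes. It was 1.40 in aCap-like cluster 2, which held 976 and 911 cells, so that it was about as large without the low-UMI cluster 9. With cells of at least 500 genes, which put 1664 and 1017 cells in the class, the median was 1.15 and 7 of the 10 genes passed, without Gbp2, Gbp3 and Iigp1.

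Among the IRGs of aCap-like cells, Igtp went from 35.1 to 124 CPM (log2 ratio 1.82, 1.66 to 1.97) and Iigp1 from 8.77 to 33.35 CPM (1.93, 1.62 to 2.24). With cells of at least 500 genes the log2 ratio of Iigp1 was 0.35 and that of Igtp 1.83. Tgtp2 went from 12.6 to 40.9 CPM (1.70, 1.44 to 1.97). In the B16-F10 library the Igtp level of aCap-like cells was above that of gCap-like cells, 124 against 95.4 CPM, whereas in control it was below, 35.1 against 49.4 CPM. The regulators Irgm1 and Irgm2 rested at 43.5 and 57.1 CPM and stood at 96.1 and 127 CPM after injection (1.15 and 1.16).

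Among the GBPs of aCap-like cells, Gbp5 was nearly absent in control, with 10 UMIs, and had 102 UMIs after injection. Its level was 0.763 and 9.35 CPM, a log2 ratio of 3.62 (2.68 to 4.72), which was 1.19 with cells of at least 500 genes. Free RNA would supply 24.5% of the control Gbp5 value and 5.16% of the other. Gbp6 went from 15.25 to 50.1 CPM (1.72, 1.48 to 1.96). Free RNA supplied 1.17% of the control Gbp6 value, a small part of it. Gbp2 (12.5 and 24.2 CPM, 0.95), Gbp7 (52.85 and 94.4 CPM, 0.84) and Gbp3 (4.805 and 8.155 CPM, 0.76) differed by less than 2-fold. Free RNA supplied up to 7.62% of these 3 genes in either library, and 16.6% of the control value of Iigp1 and 8.66% of the other.

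The log2 ratio was larger in aCap-like than in gCap-like cells for each of the 10 genes, except that with cells of at least 500 genes 3 stood the other way. These were Gbp2 (0.53 in aCap-like and 0.86 in gCap-like cells), Gbp3 (0.19 and 0.46) and Iigp1 (0.35 and 0.72). The median of aCap minus gCap log2 ratios was 0.83, against 0.04 over 10990 genes measured in both classes. For 7 of the 10 genes the aCap ratio exceeded the gCap ratio by 1.5-fold or more, and for 4.89% of all genes. Over all 10990 genes the aCap ratio was the larger for 6084. The 95% intervals of both ratios were apart for 8 of the 10 genes, and for 1453 of the 10990. With a single library in each group this difference was not tested over samples. These shares are not independent of how the 10 genes were selected and are not read as a result.

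**Figure D2:**
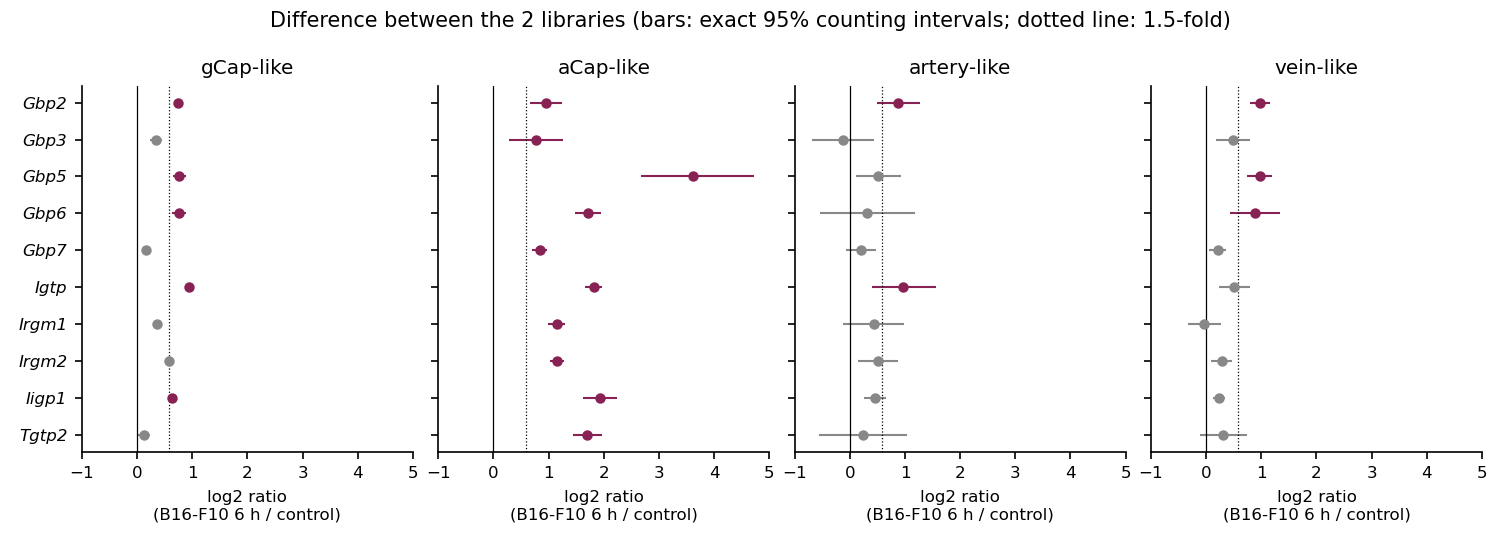
Log2 ratio of B16-F10 6 h over control for each gene in gCap-like, aCap-like, artery-like and vein-like cells, with exact 95% counting intervals; the dotted line marks 1.5-fold and coloured points lie at or beyond it. All 10 genes pass it in aCap-like cells, 5 in gCap-like cells, 3 in veins and 2 in arteries.

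In the larger vessels, where counts are lower, fewer of the 10 genes passed 1.5-fold. Their summed level was 770 and 1048 CPM in artery-like cells, a log2 ratio of 0.45 (0.33 to 0.56). In vein-like cells it was 1184 and 1589 CPM (0.42, 0.36 to 0.49), beside a log2 ratio of 0.51 in gCap-like cells. The median log2 ratios of the 10 genes were 0.44 (artery-like) and 0.40 (vein-like), with 9 of 10 above 0 in each class. In artery-like cells Gbp2 (63.7 and 117 CPM, log2 ratio 0.88, 0.50 to 1.27) and Igtp (29.35 and 57.6 CPM, 0.97, 0.41 to 1.56) were at least 1.5-fold higher. These were 2 of 10 genes, where 9.52% of 7240 genes were as much higher. In vein-like cells 3 of 10 genes passed, all GBPs, where 5.09% of 9212 genes did. They were Gbp2 (128 and 253 CPM, 0.98, 0.80 to 1.16), Gbp5 (82.7 and 162 CPM, 0.97, 0.7439 to 1.198) and Gbp6 (21.4 and 39.5 CPM, 0.88, 0.43 to 1.34).

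The GBP and IRG genes stood in a different order in veins and aerocytes. The median log2 ratio was 0.88 for the 5 GBPs and 0.28 for the 5 IRGs of vein-like cells, and 0.95 and 1.70 in aCap-like cells. Irgm1 stood at 63.0 and 61.6 CPM in vein-like cells (-0.03, -0.34 to 0.27), and it was 2.21-fold higher after injection in aCap-like cells. In artery-like cells Gbp3 stood at 43.7 and 40.2 CPM (-0.12, -0.68 to 0.43). The count in artery-like cells rests on few cells. It was 4 with doublets kept or under 10% mitochondrial UMIs, and 1 of 4 measured genes with cells thinned to 2000 UMIs.

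In LEC-like cells no difference in the summed level was detectable at this depth. The summed level was 287 CPM (138 UMIs) in control and 289 CPM (139 UMIs) in the B16-F10 library, a log2 ratio of 0.01 (-0.34 to 0.36). Only Gbp7 (-0.05) and Iigp1 (0.29) reached 50 UMIs, and 0 of these 2 passed 1.5-fold, as 8.4% of 3977 genes did. Igtp had 0 UMIs in control LEC-like cells, where 3 UMIs, the limit used for a count of 0, equal 6.24 CPM, and 9 UMIs (18.7 CPM) after injection. Gbp3 had 13 and 4 UMIs (log2 ratio -1.70, -3.77 to -0.01). Both intervals leave 0, on counts under the 50 UMIs asked of a measured gene.

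Of the endothelial clusters, 3 carried no vessel name. Cluster 8, with 563 and 442 cells, led by Slit3, Pcsk5, Hey1 and Efnb2, was at 825 and 1075 CPM for the 10 genes together. Cluster 12, led by Fosl1, Sox9 and Myc, had 12 control cells and 344 B16-F10 cells and stood at 871 (702 to 1068) and 863 CPM (832 to 895). Cluster 15, led by Aqp7 and Rbp7, had 172 and 30 cells and stood at 978 and 735 CPM (log2 ratio -0.41, -0.68 to -0.15). It was the only group of ECs in which the summed level was lower beyond counting error after injection.

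Individual gCap-like cells differed widely in these genes in both libraries. With each cell thinned to 2000 UMIs, 31.6% of control and 25.4% of B16-F10 gCap-like cells had no UMI of any of the 10 genes. The highest cell had 63 and 64. The 5% of cells with the most held 28.1% of the UMIs in control and 28.3% after injection, so the unevenness was alike. Cells with over 6 UMIs, the 95th percentile of control, were 4.42% (3.83 to 5.08) in control and 9.18% (8.31 to 10.1) after injection. Without thinning, the shares over 6 UMIs were 32.2% and 50.5%, at the unequal depths given above. In aCap-like cells the thinned shares were 0.07% (1 of 1431 cells) and 2.27% (22 of 970 cells).

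**Figure D3:**
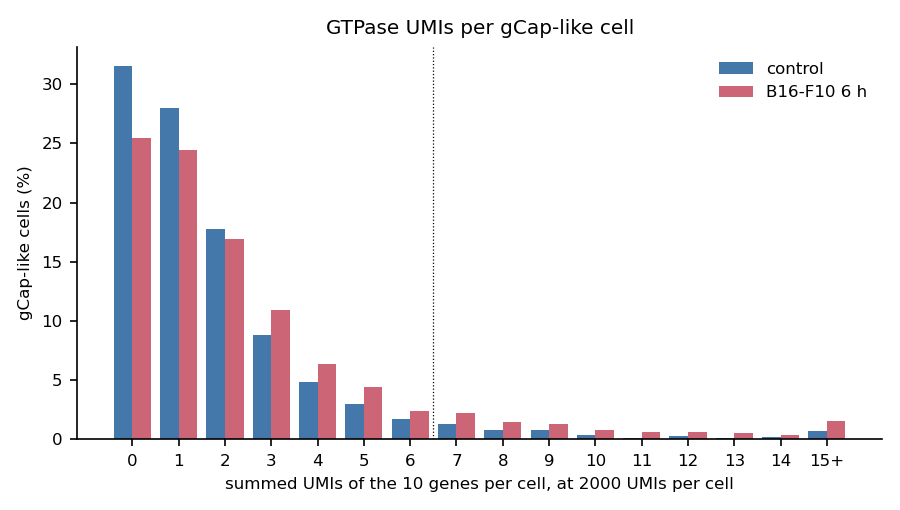
Share of gCap-like cells (%) by the summed UMIs of the 10 genes per cell, with every cell thinned to 2000 UMIs, for control and B16-F10 6 h; the dotted line stands above 6 UMIs. Cells without any UMI are 31.6% of control and 25.4% of B16-F10 cells, and both libraries have a long right tail.

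The genes went together from cell to cell. For each gene, gCap-like cells were ranked by the UMIs of the other 9, and the 10% with the most were set against the rest. In control, Igtp was 7.05-fold higher in the leading cells (219 and 31.01 CPM), Gbp5 6.73-fold and Gbp7, the least, 2.64-fold. In the B16-F10 library Gbp5 was 8.23-fold higher (248 and 30.1 CPM) and Gbp7 2.98-fold. In both libraries each of the 10 genes was thus higher in cells that held more of the other 9 together. All 10 are markers of the study's interferon-high cluster, which was drawn partly from these cells. This joint variation is therefore a description and not independent of how the genes were chosen.

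The 10 non-member genes whose UMIs followed those of the GTPase genes best across 4318 thinned control gCap-like cells, of 5975 genes compared, included Gm4951, Ifi47, Ifit3, Isg15, Gbp4, Ifit1, Oasl2, Herc6 and Nlrc5. Their Pearson r was between 0.22 and 0.32, and between 0.21 and 0.37 in the B16-F10 cells. Of all 10, 9 are on the study's interferon-high list. Gm4951 and Ifi47 encode further IRG proteins. Cells of a library share its depth and free RNA, so these values describe these cells only. Over the 10 points of 5 vessel classes in 2 libraries, the likest of 3641 genes were Tma7, mt-Atp6, 9930111J21Rik2, Tnfsf10, Slc3a2, mt-Atp8, Iqgap1, Snrpg, Nono and Fzd4, with r from 0.91 to 0.96. These points share libraries and depth, and only 9930111J21Rik2 of them is on the interferon-high list.

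When gCap-like cells were binned by type I interferon genes that are not among the 10, the 10 genes stood higher in the bins with more of them. Ifit1, Ifit3, Isg15, Oasl2 and Herc6 of that list are, like the 10 genes, on the study's interferon-high list. The order of the bins is therefore a description and not independent of that list. In control the summed level was 578 CPM in the 1966 cells without a type I UMI and 2949 CPM in the 214 cells with 8 or more. In the B16-F10 library it was 742 CPM in 1667 cells and 4153 CPM in 252 cells. The B16-F10 value was above control in each of the 5 bins. Cells with 8 or more type I UMIs were 4.96% of control and 6.2% of B16-F10 gCap-like cells. In this bin Iigp1 stood at 883 and 1480 CPM, and Gbp7 at 600.0 and 629 CPM, so that Gbp7 differed little between libraries even there.

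By the study's rCap markers, which were chosen partly on these libraries, the summed level of the 10 genes was also higher in cells with more of these markers. From the lowest to the highest of 4 equal groups of gCap-like cells the summed level went from 646 to 1211 CPM in control and from 918 to 1778 CPM in the B16-F10 library. Igtp went from 26.9 to 82.9 CPM and from 51.7 to 149 CPM. Not all genes went so far, and in the B16-F10 library Gbp3 stood at 41.3 CPM in the lowest and 43.8 CPM in the highest group. Gbp7 stood there at 224 and 263 CPM, with 281 CPM in the third group. The type I list went from 595 to 1081 CPM in control and from 689 to 1101 CPM after injection. From the third to the highest group of the B16-F10 library it went only from 1089 to 1101 CPM. The 10 genes together went there from 1367 to 1778 CPM. The groups are not at matched rCap levels, because these markers were themselves higher after injection.

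**Figure D4:**
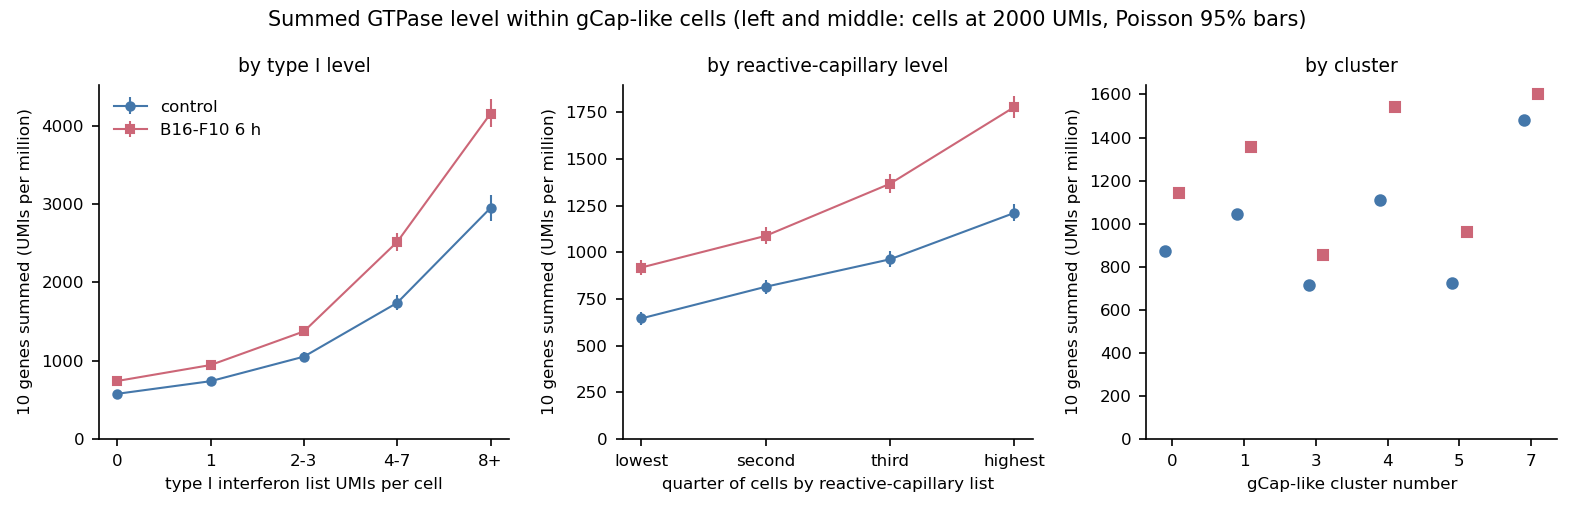
Summed level of the 10 genes (CPM) in gCap-like cells of control (circles) and B16-F10 6 h (squares): by UMIs of the type I interferon list per cell, by 4 equal groups of cells ranked on the reactive-capillary list, both with Poisson 95% bars in thinned cells, and by gCap-like cluster. The level runs from 578 to 2949 CPM across type I bins in control and from 742 to 4153 CPM after injection.

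The rest of the pathway was described from lists chosen by function. Of 17 other GBP and IRG genes with rows, 15 were measured in gCap-like cells, with a median log2 ratio of 0.28. Of all measured genes there 7.66% were at least 1.5-fold higher, and of these 15 genes 2 were. These were Ifi47 (132 and 216 CPM, 0.71) and Gbp10 (18 and 36 UMIs, 0.86). In aCap-like cells 7 of 11 were (6.48% of all genes), with a median of 0.84, Ifi47 among them (41.3 and 120 CPM, 1.53). The measured other genes of the families thus had the higher median in aCap-like cells, as the 10 genes did. Their medians, over 15 and 11 genes, were below those of the 10 genes. Because the 10 genes were selected on measured values of these libraries, this difference in size is not read as a result.

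Receptors differed little. In gCap-like cells Ifngr1 stood at 214 and 223 CPM (0.06), Ifngr2 at 112 and 95.03 CPM (-0.23), Ifnar1 at 78.7 and 64.1 CPM (-0.30) and Ifnar2 at 224 and 249 CPM (0.15). Of the kinases, Jak1 stood at 266 and 352 CPM (0.40), and Tyk2, of the type I receptor, at 28.4 and 20.25 CPM (-0.49). Jak2, of the interferon gamma receptor, was the only 1 of these 7 genes past 1.5-fold (7.66% of all genes), at 57.9 and 92.7 CPM (0.68). In aCap-like cells Jak2 stood the other way, at 51.9 and 40.2 CPM (-0.37, -0.54 to -0.19), and 0 of the 7 passed (6.48% of all genes).

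Of 11 transcription factors 4 were at least 1.5-fold higher in gCap-like cells (7.66% of all genes) and 7 were not. Their median log2 ratio was 0.36. Irf1, which binds the ISRE, stood at 177 and 217 CPM (0.29) in gCap-like and at 196 and 321 CPM (0.71) in aCap-like cells. The 4 past 1.5-fold in gCap-like cells were Stat3 (168 and 261 CPM), which serves the interleukin 6 family, Irf8 (1.11 and 7.66 CPM), Batf2 (10.2 and 17.95 CPM) and Ciita (10.9 and 19.7 CPM), the regulator of MHC class II genes.

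Feedback inhibitors of the pathway were among the genes that differed. Socs3, a feedback inhibitor induced by Stat3, stood at 70.3 and 508 CPM (2.85) in gCap-like and at 21.5 and 174 CPM (3.02) in aCap-like cells. Socs1, the inhibitor of interferon gamma signalling, stood at 4.05 and 8.56 CPM (1.08) and at 5.49 and 17.0 CPM (1.63). Ptpn2, a phosphatase that acts on the pathway, stood at 40.55 and 61.1 CPM (0.59) in gCap-like cells. Past 1.5-fold were 3 of 6 measured feedback genes in gCap-like cells (7.66% of all genes) and 2 of 6 in aCap-like cells (6.48%).

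Of the interferon gamma targets outside the GTPases, 5 of 8 measured in gCap-like cells were at least 1.5-fold higher, with a median of 0.74, where 7.66% of all genes were. They were the chemokines Cxcl10 (2.38 and 20.3 CPM) and Cxcl9 (1.39 and 2.74 CPM), Cd274 (14.7 and 24.9 CPM), Ido1 (1.51 and 2.55 CPM) and the MHC class II gene H2-Aa (65.3 and 108 CPM). In aCap-like cells 5 of 7 were (6.48% of all genes), while Cxcl9 (0.21, -0.37 to 0.79) and Ido1 (0.04, -0.48 to 0.56) were not. There Cxcl10 had 3 UMIs in control and 997 after injection (log2 ratio 8.64, 7.09 to 10.9). Of the type I genes 1 of 13 passed in gCap-like cells (Oas1a, 4.76 and 7.36 CPM), with a median of 0.17, and 4 of 12 in aCap-like cells, with a median of 0.45.

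The partners of GBP and IRG proteins differed little in gCap-like cells except for 1 gene. Of 15 measured genes of the autophagy conjugation system and inflammasomes, 1 passed in gCap-like cells (7.66% of all genes), and their median was 0.06. It was Casp4, whose product caspase-11 senses lipopolysaccharide with the help of GBPs, at 21.4 and 57.3 CPM (1.42, 1.30 to 1.55). In aCap-like cells Casp4 stood at 14.4 and 41.6 CPM (1.53), and 2 of 14 genes passed (6.48% of all genes).

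**Figure D5:**
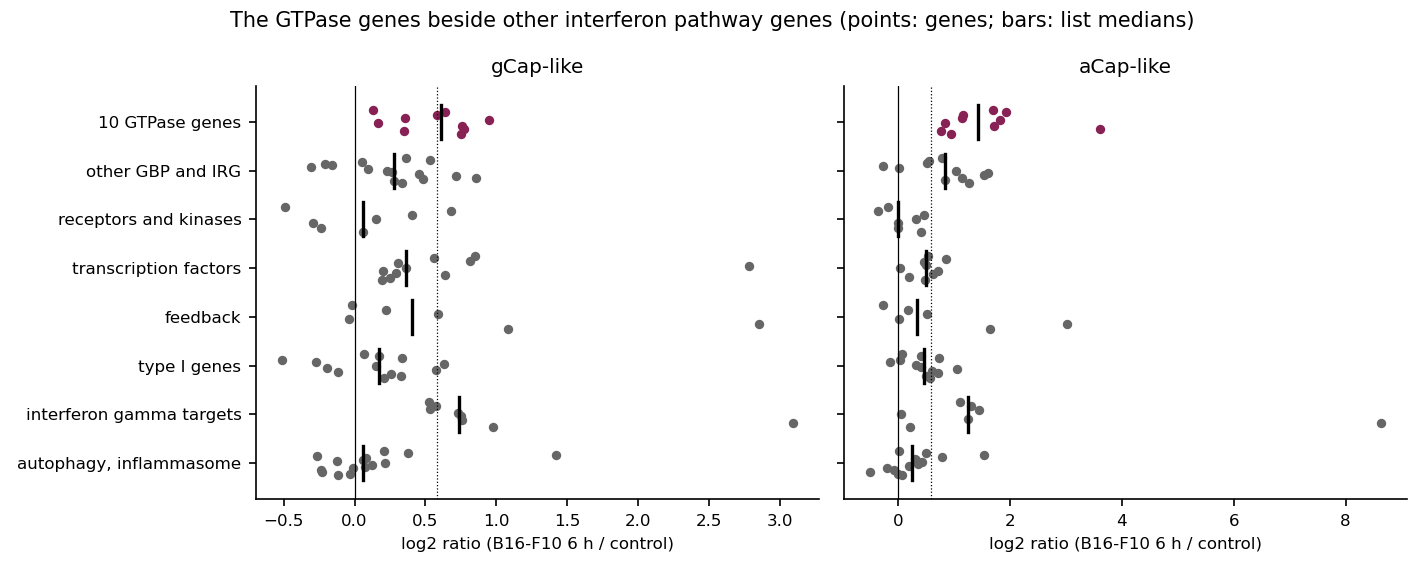
Log2 ratio of B16-F10 6 h over control of each measured gene of 8 lists in gCap-like and aCap-like cells; points are genes, bars list medians, and the dotted line marks 1.5-fold. The 10 GTPase genes have medians of 0.61 and 1.43, the type I genes of 0.17 and 0.45, and Cxcl10 is the point at 8.64 in aCap-like cells.

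The interferon genes themselves were at or near 0. Ifng had 9 UMIs in 2 control cells, both T/NK-like, and 3 UMIs in 3 B16-F10 cells, and Ifnk had 3 UMIs in each library. Ifnb1, Ifna1, Ifna2, Ifna4, Ifna5, Ifne, Ifnl2 and Ifnl3 had 0 UMIs in the kept cells of both libraries. The sort removed Ptprc-positive leukocytes, which include the main sources of Ifng, so these counts cover the few immune cells that passed.

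Markers of other cells moved between the libraries within the vessel classes. In gCap-like cells 7 of 8 macrophage markers were detected in each library, with a summed level of 14.6 and 28.3 CPM, mostly Lyz2, and with C1qa at 0 in control and Ms4a7 at 0 after injection. Of the 8 neutrophil markers 6 and 8 were detected, at 2.72 and 8.78 CPM, with Ly6g and Mmp8 at 0 in control. Of the 8 melanoma markers 4 and 8 were detected, at 26.8 and 55.3 CPM, with Mlana, Dct, Tyrp1 and Sox10 at 0 in control. Mitf made up 25 of the 26.8 CPM in control and was lower after injection, at 18.7 of the 55.3 CPM. The higher sum thus came from the other markers of this list. Pericyte and smooth muscle (mural) markers stood at 26.7 and 45.6 CPM, fibroblast markers at 11.1 and 20.7 CPM, B cell markers at 3.18 and 5.03 CPM, T/NK markers at 0.278 and 1.2 CPM and platelet markers at 25.7 and 27 CPM. Macrophage and neutrophil lists were at 10.8 and 20.7 CPM and at 3.2 and 7.42 CPM in aCap-like cells. There the T/NK list was at 0.229 and 4.67 CPM, with 3 and 6 of 8 detected and with Cd3e and Il7r at 0 in both libraries. The part of these cells in the levels of the 10 genes was not tested. Melanoma-like cells themselves held 35.02 CPM of the 10 genes together, well under the gCap-like level. After injection T/NK-like cells held 654 CPM, beside 607 CPM in aCap-like cells. Macrophage-like cells held 202 CPM, B-like cells 124 CPM and neutrophil-like cells 88.4 CPM in that library.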

How the data were processed

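The authors aligned droplet single-cell RNA reads to mm10 and deposited, for each library, a matrix of UMI counts per gene and barcode; the submitters' processing notes name Cell Ranger 7.2.0 and Seurat 4.4.0, whereas the study's methods name an earlier Cell Ranger and a later Seurat version. Cell Ranger versions differ in whether intronic reads are counted by default. Whether they were counted is not given in the sources used here. These deposited counts were used without further normalization other than division by class totals (CPM). The 10 genes, the gene lists and the tests were chosen with earlier results of these data known.

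The gene and mitochondrial limits given above kept 8394 and 8321 barcodes, and Scrublet in scanpy 1.11.5 removed 564 and 554 doublets. Cells were clustered with leidenalg 0.10.2 (resolution 0.8, 30 principal components, 20 neighbours) on 2941 variable genes, after leaving out the 10 genes, every gene list and the study's interferon-high and reactive-capillary markers. Clusters were named from 8 markers per vessel class, with naming thresholds chosen once an initial clustering was known. Clusters of mixed markers (716 and 1231 cells) were not compared as a class.

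UMIs were summed per class. Levels carry exact Poisson and ratios exact conditional binomial 95% intervals, and shares exact Clopper-Pearson intervals. A gene was measured with at least 50 UMIs over both libraries, called at 1.5-fold, and a count of 0 allows up to 3 UMIs. For values per cell, each cell was thinned to 2000 UMIs, which left out 62 and 28 gCap-like cells. Free RNA was estimated from Sftpc, Sftpb and Scgb1a1 against barcodes of at most 100 UMIs. Of other genes, those of the pathway lists at least 1.5-fold higher in gCap-like cells, all receptors and kinases, Irf1 and Socs1 were named, and the likest 10 genes by cell and by class, of which 1 is not reported here. The scripts were tested on simulated data.

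Alternatives covered the gene and mitochondrial limits, doublets, clustering resolution, thinning, the fold limit and the genes summed. Added after seeing the data were the alternatives without clusters under 5000 median UMIs and without the reactive-capillary-led cluster. Python 3.11.15, numpy 2.4.6, scipy 1.17.1, pandas 2.3.3 and matplotlib 3.10.9 were used.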

Additional observations from a re-analysis of the deposited data

Results flagged for a closer look

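The signal of the 10 genes also appeared in barcodes outside the cells compared, above the level in the control library. In near-empty barcodes of at most 100 UMIs, which hold free RNA, the summed level was 495.8 CPM in control and 756.9 CPM in the B16-F10 library. In barcodes with at least 300 and under 1000 detected genes it was 500.6 and 668.4 CPM. In barcodes with over 5000 genes it was 600.9 and 825.2 CPM. These values rest on 1 library in each group.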

How the results depend on the processing

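Each group was 1 library, so precision covers counting only. No paired analysis was possible because there was a single library to a group and no result comes from a test. Of 113 class summaries 90 kept their value within the counting interval or 1.5-fold and 23 moved. Of 406 single-gene values 359 did so, 47 moved and 16 had the opposite sign, none of them a gene past 1.5-fold here. The median log2 ratio of gCap-like cells (0.61) was 0.70 with cells of at least 500 genes, 0.42 with doublets kept and 0.49 without the cluster led by reactive-capillary genes. The number of the 10 genes at least 1.5-fold higher there (5) was 2 with doublets kept, 3 without that cluster, 8 at a limit of 1.2-fold and 0 at 2-fold. The aCap-like median (1.43) was 1.15 with cells of at least 500 genes and 1.68 in thinned cells. The aCap-like count (10) was 7 with cells of at least 500 genes, 7 at 2-fold and 8 of 8 measured genes in thinned cells. The artery-like count (2) was 4 with cells of at least 500 genes, under 10% mitochondrial UMIs or with doublets kept. It was 1 of 4 measured genes in thinned cells, 7 at 1.2-fold and 0 at 2-fold. The vein-like count (3) was 7 at 1.2-fold and 0 at 2-fold, and the LEC-like count (0) was 1 with doublets kept and 1 at 1.2-fold. The share of gCap-like cells of the B16-F10 library above the limit (9.18%) was 10.6% with cells thinned to 4000 UMIs, 2.31% at the 99th percentile of control, 7.65% without Gbp2 and 8.02% without Igtp. The control share (4.42%) moved as well, to 4.88%, 0.95%, 3.84% and 3.66% in the same order. LEC-like cells thinned to 2000 UMIs gave no value, as no gene reached 50 UMIs. Clustering sets the classes, and gCap-like cells numbered 4380 and 4091 here and 3113 and 1645 at doubled resolution. The causes of these changes were not tested.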

Other observations

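Few cells of other types passed the sort, and the 10 genes were present in some of them. T/NK-like cells (8 in control and 26 after injection) held 281 and 654 CPM of the 10 genes together. Macrophage-like cells (6 and 36) held 106 and 202 CPM. Clusters with mixed endothelial, platelet, erythroid, mural, fibroblast or epithelial markers (716 and 1231 cells) held 712 and 1060 CPM, a log2 ratio of 0.57 (0.51 to 0.64).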
